A study of Mus musculus with 28 samples.

Results

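The neurotransmitter that a cell releases is set by a small group of genes for the enzymes that make it and the transporters that load it into vesicles. The 10 genes of this kind examined here were chosen by name, and all 10 are among the 19421 genes of the expression table. They were the vesicular glutamate transporters Slc17a7 (VGLUT1) and Slc17a6 (VGLUT2), the vesicular transporter for GABA and glycine Slc32a1, the GABA-synthesising glutamate decarboxylases Gad1 and Gad2, the neuronal glycine transporter Slc6a5, choline acetyltransferase Chat, the vesicular acetylcholine transporter Slc18a3, tyrosine hydroxylase Th, which catalyses the first step of dopamine and noradrenaline synthesis, and the vesicular monoamine transporter Slc18a2. Of these, 8 passed the filter on low values, which asked for 10 or more normalized counts in 2 or more libraries, and were tested. Slc17a6 and Slc6a5 did not and are given by level.

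RNA-seq was available for 28 libraries of embryoid bodies (EBs) made from 7 mouse embryonic stem cell lines, all derived from A2Lox cells. Each line carried a doxycycline (Dox)-inducible cassette for Atoh1 (iAtoh1), Gfi1 (iGfi1), Pou4f3 (iPou4f3), Gfi1 and Atoh1 (iG+A), Gfi1 and Pou4f3 (iG+P), Pou4f3 and Atoh1 (iP+A), or Gfi1, Pou4f3 and Atoh1 (iGPA), joined by 2A peptides and ending in the fluorescent reporter mVenus, with FLAG-tagged Atoh1 and Myc-tagged Pou4f3. Dox was given at 2 µg/ml for 48 h from day 4 of EB culture, and Dox samples were sorted mVenus+ cells at day 6, whereas untreated samples were whole unsorted EBs of the same day and line. The effects of Dox and of sorting therefore cannot be told apart. Each of the 14 groups had 2 replicates, given in the series record as separate clones of 1 line.

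In the nervous system, vesicular transporters are the defining marks of a transmitter phenotype, because a cell that lacks the transporter for a transmitter cannot package it. Cochlear hair cells (HCs), which Atoh1, Gfi1 and Pou4f3 help to specify, release glutamate that is loaded by VGLUT3 (Slc17a8), while most central excitatory neurons use Slc17a7 or Slc17a6. Atoh1 is also required for several groups of glutamatergic neurons of the hindbrain and cerebellum. Atoh1 is a basic helix-loop-helix factor of the kind that binds E-boxes, Gfi1 is a zinc-finger factor that is best known as a repressor, and Pou4f3 is a POU homeodomain factor.

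Depth estimated from the smallest steps of the values was 30.3 to 48.0 M reads per library. The 3 cassettes were found in the libraries that their labels name. In Dox libraries that carried the Atoh1 cassette, Atoh1 lay between 12816 and 21242 normalized counts, against 14.3 to 32.5 in the other Dox libraries. Gfi1 lay between 8119 and 12487 with its cassette and between 49.7 and 113 without it, and Pou4f3 between 4694 and 19883 with its cassette and between 27.7 and 101 without it. Transcripts of the cassette and of the endogenous gene are not told apart in these values. The summed normalized counts of 8 neuronal markers were 426 to 1305 in untreated libraries and 809 to 23613 in Dox libraries, with the highest sums in iP+A (23613 and 17578) and iGPA (7222 and 6977). All 8 of these markers rose in iP+A, 7 in iGPA, 4 in iAtoh1, 4 in iG+A, 2 in iPou4f3, 2 in iG+P and 0 in iGfi1, and none of the 8 was at 0 in both replicates of a group. The summed counts of 7 blood markers, which include embryonic globins, were 62833 to 483324 in untreated libraries and 11630 to 349561 in Dox libraries, and those of 7 fibroblast markers 43314 to 107019 and 7169 to 70417. Of the 7 blood markers, 5 fell in iAtoh1, 5 in iG+A, 5 in iP+A and 4 in iGPA, the lines with Atoh1, against 2 in iG+P and 0 in iGfi1 and iPou4f3. Of 6 HC markers, 0 rose in iAtoh1 and iGfi1, 1 in iPou4f3, 2 in both iP+A and iG+P, 3 in iG+A and 4 in iGPA, and none fell. Of 7 pluripotency markers, 4 fell in iP+A, 3 in both iG+A and iGPA, 1 in iG+P and none in the other lines. Of the 7 fibroblast markers, 6 fell in iGPA, 4 in both iG+A and iG+P, 3 in iAtoh1, 2 in iGfi1 and 1 in iP+A. The fibroblast marker Thy1 rose in iP+A and iGPA. In these bulk samples fewer cells of a type and less RNA per cell cannot be told apart, and the part of cell composition in the results below was not tested.

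A gene was called when its log2 fold change was at least 1.5 in either direction at an adjusted p under 0.05 (limma, adjusted over the 16837 genes tested). Over the 8 tested genes and 7 lines there were 56 comparisons of Dox with the untreated EBs of the same line, of which 19 were higher, 0 lower and 37 not called (limma). At an unadjusted p under 0.05, 2 lay below the untreated level, Slc32a1 in iAtoh1 and Chat in iG+P. The number of the 8 genes that rose was 5 in iGPA, 4 in both iP+A and iG+A, 2 in both iG+P and iPou4f3, and 1 in both iAtoh1 and iGfi1. These counts and the medians below include Chat, called in iGPA, which passed the filter only through its iGPA Dox libraries, and Slc18a3, called in iGPA, iP+A and iG+A, which passed it only with the help of Dox libraries that carry Atoh1, so that they support nothing for those lines. Among all genes tested, 8.65% rose in iGPA, 4.70% in iP+A, 7.35% in iG+A, 5.16% in iG+P, 1.47% in iPou4f3, 2.89% in iAtoh1 and 2.15% in iGfi1. The shares that fell were 5.31%, 2.58%, 4.95%, 5.36%, 0.606%, 2.52% and 2.67% in the same order of lines. The median log2 fold change of the 8 genes was 2.62 in iGPA, 1.06 in iP+A, 1.78 in iG+A, 0.74 in iG+P, 0.95 in iPou4f3, 0.88 in iAtoh1 and 0.80 in iGfi1, while the median over all genes tested lay between -0.03 and 0.02.

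**Figure D1:**
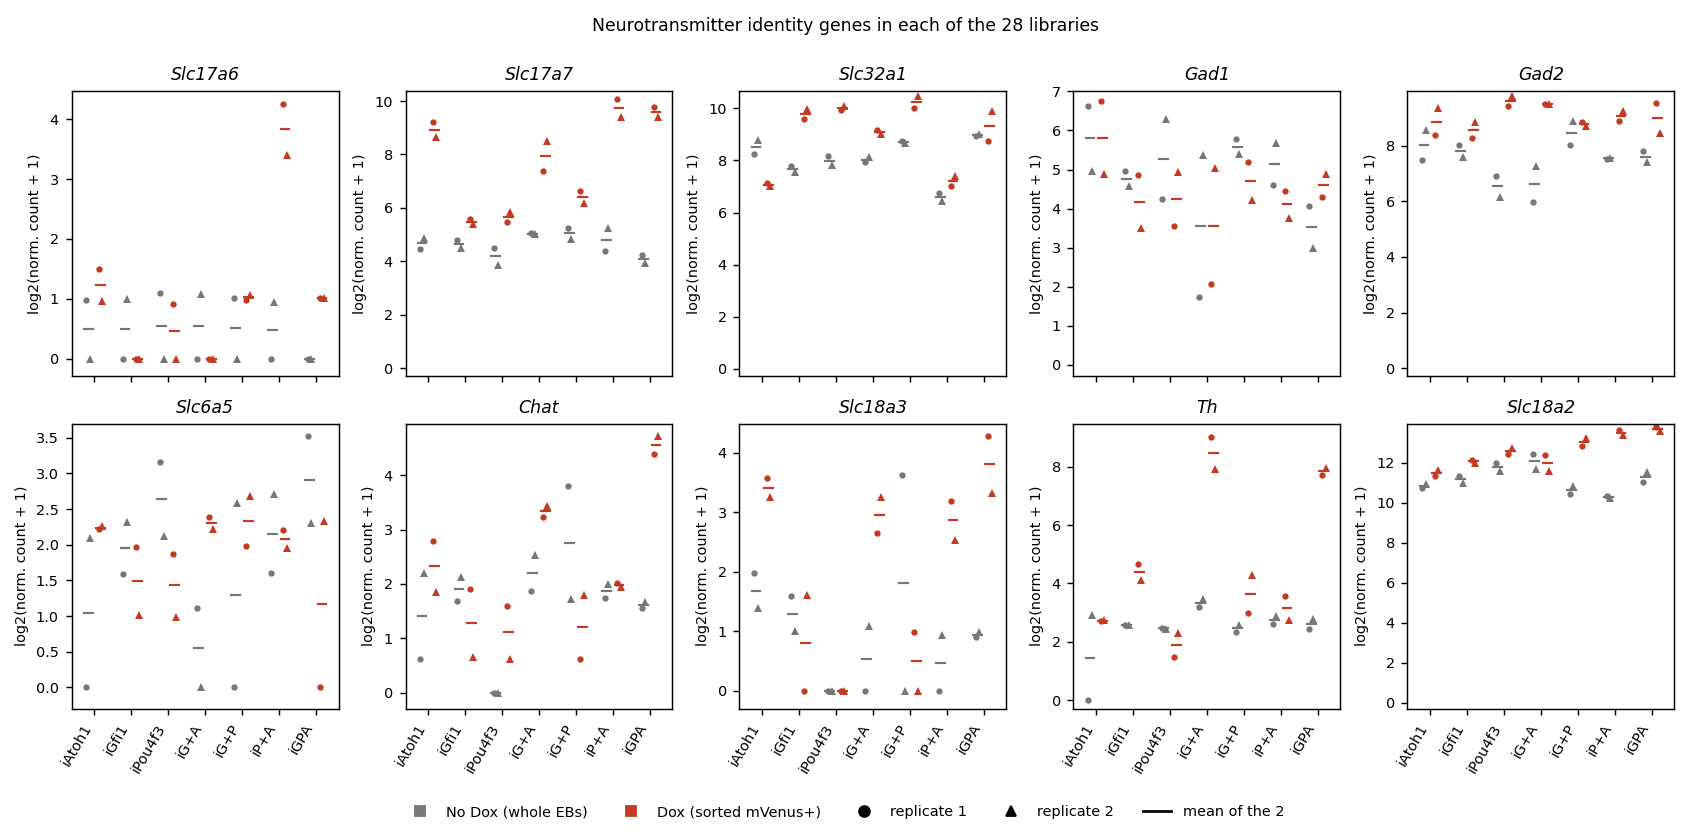
Level of each of the 10 genes as log2(normalized count + 1) (y axis, scale set per panel) in the 7 lines (x axis); grey marks are untreated EBs, red marks sorted mVenus+ cells with Dox, circles replicate 1, triangles replicate 2 and short lines the mean of the 2 log2 values. Slc17a7 with Dox lies above its untreated level in every line, and Th leaves the bottom of its panel in iG+A and iGPA.

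**Figure D2:**
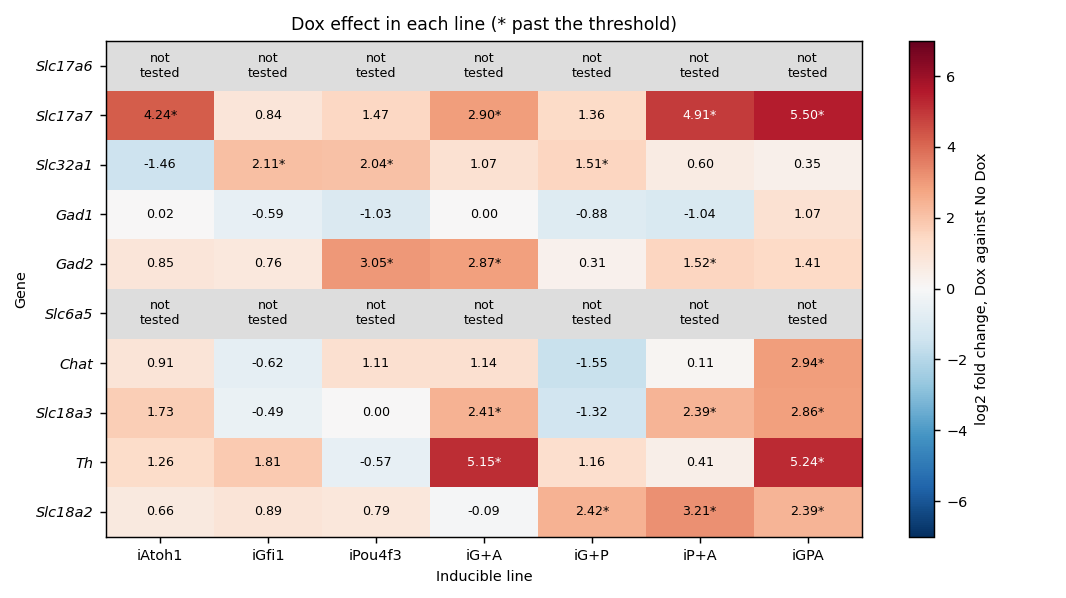
Log2 fold change of Dox against untreated EBs (colour and printed value) for the 10 genes (rows) in the 7 lines (columns); an asterisk marks a call, and grey cells are the 2 genes that were too low to test. The calls are spread over 7 of the 8 tested genes, with the largest values for Slc17a7 in iGPA (5.50) and for Th in iGPA (5.24) and iG+A (5.15).

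Promoter sequence is shown for 3 genes on which the results below turn, chosen after their values were seen. Slc17a7 was called in the lines with Atoh1, Th in the lines with Gfi1 and Atoh1, and Slc18a2 in the lines that combined Pou4f3 with another factor. Each run is the 250 bases before the RefSeq start, 5′ to 3′ on the strand of the gene, with a CAGNTG E-box (either strand) in capitals. They lie at chr7:45163671-45163920 (plus strand), chr7:142899996-142900245 (minus strand) and chr19:59260628-59260877 (plus strand) of GRCm38.p6.
Slc17a7: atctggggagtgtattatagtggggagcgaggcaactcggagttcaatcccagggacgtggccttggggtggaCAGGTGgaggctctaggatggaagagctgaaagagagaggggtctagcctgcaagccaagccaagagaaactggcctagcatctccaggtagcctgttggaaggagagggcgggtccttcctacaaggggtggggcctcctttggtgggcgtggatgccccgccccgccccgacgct
Th: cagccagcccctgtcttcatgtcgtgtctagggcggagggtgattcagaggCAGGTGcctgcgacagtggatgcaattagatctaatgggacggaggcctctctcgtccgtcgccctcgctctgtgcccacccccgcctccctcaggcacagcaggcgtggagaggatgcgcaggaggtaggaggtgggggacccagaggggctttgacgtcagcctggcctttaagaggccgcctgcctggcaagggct
Slc18a2: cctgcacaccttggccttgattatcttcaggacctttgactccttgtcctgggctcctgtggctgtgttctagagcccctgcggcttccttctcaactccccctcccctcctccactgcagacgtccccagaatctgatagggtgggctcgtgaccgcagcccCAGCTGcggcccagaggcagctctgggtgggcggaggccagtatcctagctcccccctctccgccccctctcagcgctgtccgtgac
Each of the 3 windows held 1 CAGNTG E-box, 177, 199 and 87 bases before the start. AATC, the core letters of the Gfi1 motif, stood once in the windows of Slc17a7 and Th (205 and 209 bases before the start) and at 2 places in that of Slc18a2 (232 and 119), counting both strands. None of the 3 held ATTAAT, letters of the POU motif, on either strand. Over the 12 windows that RefSeq gives for the 10 genes, 9 held the E-box, 9 held AATC and 1 held ATTAAT (the second of the 2 windows of Slc17a6, where it overlaps an AATC match), against 44.8%, 69.0% and 4.39% of all 32851 promoter windows of the same length. These matches describe letters only.

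Of the 2 vesicular glutamate transporters among the 10 genes, Slc17a7 (chr7:52419291-52431508, plus strand, NCBIM37) passed the filter and was called in the 4 lines with Atoh1. Its untreated level was 13.5 to 37.2 normalized counts over the 14 untreated libraries, and its level with Dox was 41.3 to 1065 over the 14 Dox libraries, so that the 2 sets did not overlap. All Dox libraries lay above all untreated ones in 0.434% of the genes tested (73 of 16837), and Slc17a7 was the only one of the 8 among them. The Dox libraries themselves fell into 2 ranges. The 8 libraries with the Atoh1 cassette held 166 to 1065 normalized counts and the 6 without it 41.3 to 98.9. A gap of this direction between Dox libraries with and without the Atoh1 cassette was found for 2.49% of the genes tested, and for 2 of the 8 transmitter genes, Slc17a7 and Slc18a3. Slc18a3 passed the filter only with the help of Dox libraries that carry Atoh1, so that its place here is a description.

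In iAtoh1, Slc17a7 was 21.3 and 28.7 normalized counts in untreated EBs and 588 and 402 with Dox, a log2 fold change of 4.24 ± 0.38 (SE, n = 2 per group; adjusted p = 4.09e-07, limma). In iP+A it was 19.8 and 36.8 against 1065 and 667 (4.91 ± 0.38, adjusted p = 2.56e-08, limma). In iGPA it was 18.0 and 14.3 against 874 and 682 (5.50 ± 0.38, adjusted p = 2.52e-09, limma). The rise was thus over 10-fold in each of these 3 lines, and both Dox replicates stood far above both untreated ones. In iG+A the untreated values were 32.4 and 31.3 and the Dox values 166 and 360 (2.90 ± 0.38, adjusted p = 8.39e-06, limma). The fold changes in the lines without Atoh1 were smaller. Slc17a7 went from 26.7 and 21.9 to 46.9 and 41.3 in iGfi1 (log2 fold change 0.84), from 21.9 and 13.5 to 43.2 and 57.0 in iPou4f3 (1.47) and from 37.2 and 28.0 to 98.9 and 72.3 in iG+P (1.36), without being called in any of the 3. With quantile normalization the value in iPou4f3 became 1.53 and was called, and with all untreated libraries as one control the value in iG+P became 1.77 and was called. The latter was also called without the first untreated (1.56) or the second Dox replicate (1.59).

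Adding a factor to a line was examined as the difference between the Dox effects of 2 lines that differ by that factor. Across the 9 such pairs and the 8 genes there were 72 differences, of which 20 were higher in the line with the added factor, 1 was lower and 51 were not called. The pairs share lines, so their differences are not independent, and each difference holds the untreated levels of both lines as well as their levels with Dox. Adding Atoh1 raised the Dox effect on Slc17a7 by 2.07 on top of Gfi1, by 3.44 on top of Pou4f3 and by 4.14 on top of Gfi1 with Pou4f3 (log2, all called). Adding Pou4f3 raised it by 2.60 on top of Gfi1 with Atoh1, a difference that was not called when only the 4 groups concerned were fitted. Adding Pou4f3 on top of Atoh1 gave a difference of 0.67, with a 95% interval from -0.45 to 1.79. Adding Gfi1 on top of Atoh1 gave -1.34 (interval -2.46 to -0.22), which did not pass the threshold (adjusted p = 0.101, limma) and was called without the second iG+A Dox replicate (-1.89). Adding Gfi1 on top of Pou4f3 with Atoh1 gave 0.59 (interval -0.53 to 1.71). Read against the background, calls in these 9 pairs were made for 6.87% of all genes in iG+A minus iAtoh1, 2.78% in iP+A minus iAtoh1, 8.54% in iG+A minus iGfi1, 1.85% in iG+P minus iGfi1, 7.63% in iG+P minus iPou4f3, 1.61% in iP+A minus iPou4f3, 2.20% in iGPA minus iG+A, 5.90% in iGPA minus iG+P and 7.60% in iGPA minus iP+A. The numbers of the 8 genes called in the same order were 3, 2, 3, 1, 2, 2, 2, 4 and 2. The 4 in iGPA minus iG+P include Chat and Slc18a3, and the 2 in iGPA minus iP+A include Chat. Both genes passed the filter only with the help of Dox libraries in which they were high. Their calls, which also stand among the 20 above, support nothing for these 2 pairs.

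**Figure D3:**
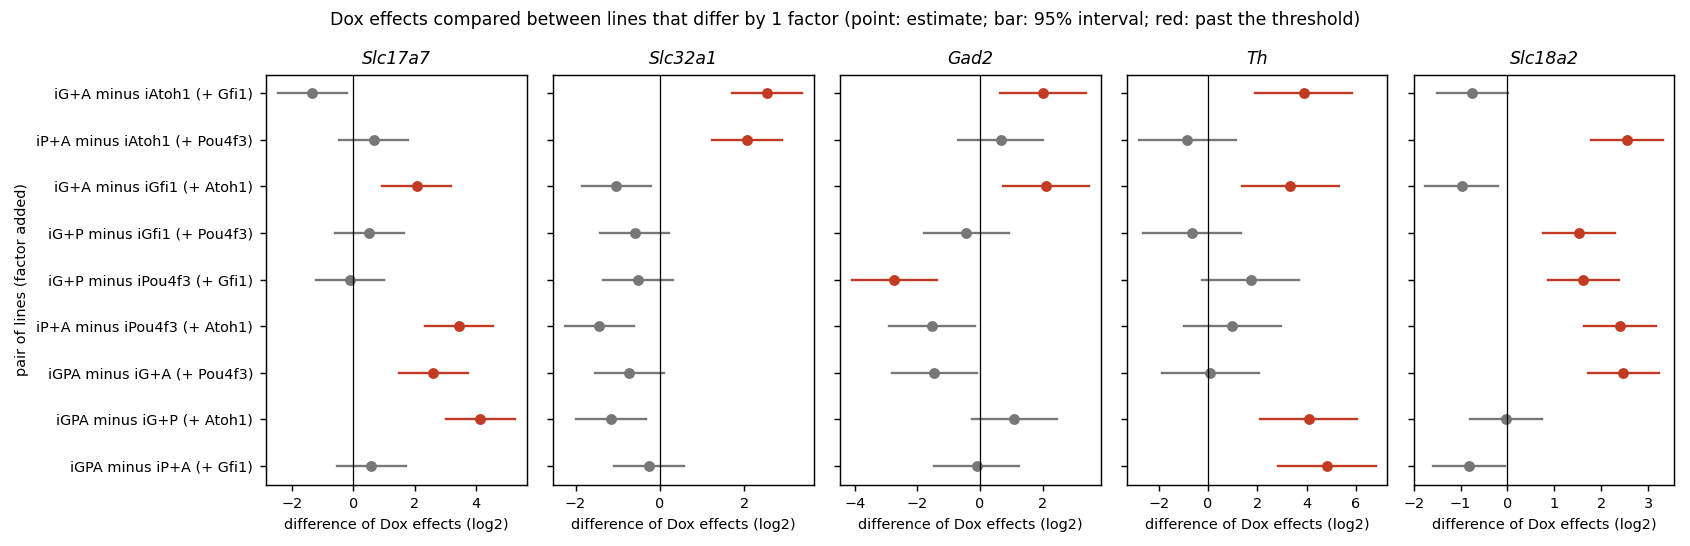
Difference of the Dox effects (x axis, log2) between 2 lines that differ by 1 factor (y axis, with the factor added in brackets) for Slc17a7, Slc32a1, Gad2, Th and Slc18a2; points are estimates, bars 95% intervals of the limma fit and red marks calls. Slc17a7 shows red points in all 3 pairs that add Atoh1, from 2.07 to 4.14, and Slc18a2 in all 3 pairs that add Pou4f3, from 1.52 to 2.55.

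The second vesicular glutamate transporter, Slc17a6 (chr7:58877200-58926495, plus strand, NCBIM37), was close to absent. It was at 0 in 8 of the 14 untreated libraries and at most 1.13 normalized counts in the others, where 1 read was worth 0.816 to 1.22. With Dox it stayed at or below 1.83 in 12 libraries and reached 18.1 and 9.62 in the 2 iP+A libraries, whose untreated EBs held 0 and 0.92. With no filter on low values, so that 19421 genes were tested, the log2 fold change in iP+A was 3.36 ± 0.54 (SE; adjusted p = 0.000176, limma) on a scale that adds 1 to each value. Its levels with Dox in iAtoh1 (1.83 and 0.946), iPou4f3 (0.89 and 0) and iGPA (1.02 and 1.01) were about those of 1 or 2 reads.

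Of the GABAergic genes, Slc32a1 was called in the 3 lines in which Slc17a7 was not, and Gad2 in lines of both kinds. Slc32a1 (chr2:158436494-158441484, plus strand, NCBIM37) was present in all untreated libraries, at 86.4 to 521 normalized counts. It rose in iGfi1, from 220 and 187 to 778 and 995 (log2 fold change 2.11 ± 0.28, SE, adjusted p = 3.92e-05, limma). It rose in iPou4f3, from 287 and 224 to 986 and 1104 (2.04 ± 0.28, adjusted p = 0.000162, limma). It also rose in iG+P, from 434 and 411 to 1032 and 1409 (1.51 ± 0.28, adjusted p = 0.000329, limma), a value next to the threshold that became 1.46 with quantile normalization, 1.47 without the second untreated replicate and 1.29 without the second Dox replicate, and was then not called. These are the 3 lines without Atoh1, and their 6 Dox libraries held 778 to 1409 normalized counts. The 8 Dox libraries with Atoh1 held 127 to 957, so that the ranges overlapped through 1 iGPA library.

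In the lines with Atoh1, Slc32a1 was not called in either direction. In iAtoh1 the untreated values were 304 and 445 and the Dox values 139 and 127. Both Dox replicates were below both untreated ones, with a log2 fold change of -1.46 ± 0.28 (SE; adjusted p = 0.000973, limma) that fell just short of the size required and was called as lower with quantile normalization (-1.51), without the first untreated replicate (-1.74) and without the first Dox replicate (-1.53). In iG+A the values were 246 and 277 against 581 and 522 (log2 fold change 1.07), in iP+A 107 and 86.4 against 127 and 168 (0.60) and in iGPA 494 and 521 against 434 and 957 (0.35). The iGPA replicates thus lay on either side of the untreated values. Compared with iAtoh1, the Dox effect on Slc32a1 was higher by 2.54 ± 0.39 when Gfi1 was added and by 2.06 ± 0.39 when Pou4f3 was added (SE, log2; both called). With Dox, however, Slc32a1 was at like levels in iP+A and iAtoh1 (means of 147 and 133), and the lines differed in their untreated means (96.7 and 374). Adding Atoh1 gave -1.04 on top of Gfi1, -1.44 on top of Pou4f3 and -1.17 on top of Gfi1 with Pou4f3, and adjusted p was 0.0585, 0.0538 and 0.0514 (limma), so that none of the 3 was called.

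Of the glutamate decarboxylases, Gad2 rose and Gad1 did not. Gad2 (chr2:22477725-22549394, plus strand, NCBIM37), which makes the GAD65 isoform, was between 61.7 and 471 normalized counts in untreated libraries and between 309 and 875 with Dox. In iPou4f3 it went from 120 and 71.1 to 684 and 875 (log2 fold change 3.05 ± 0.46, SE, adjusted p = 0.000436, limma). In iG+A it went from 61.7 and 155 to 725 and 717 (2.87 ± 0.46, adjusted p = 7.73e-05, limma). These were the 2 lines with the lowest untreated means, 95.7 ± 34.7 and 108 ± 66.2 (SD, n = 2), and among the highest Dox means, 780 ± 135 and 721 ± 6.16. Over the alternative settings their log2 fold changes fell as low as 2.08 and 1.98, and neither call was lost.

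In iP+A, Gad2 went from 185 and 187 to 473 and 604 (1.52 ± 0.46, SE, adjusted p = 0.0206, limma). That call was lost when any one of the 4 libraries was left out (1.34 to 1.69), and with a pseudocount of 5, quantile normalization and rescaling by the 75th percentile (1.5, 1.46 and 1.49). In iGPA the values were 224 and 168 against 751 and 355, and the log2 fold change of 1.41 was below the size required. It was called there without the first untreated replicate (1.62) or the second Dox replicate (1.95). In iAtoh1 (177 and 374 against 331 and 656) and iG+P (263 and 471 against 462 and 415) the ranges of the 2 conditions overlapped. In iGfi1, Gad2 was 258 and 192 against 309 and 461 and was not called. Adding Gfi1 to Pou4f3 lowered the Dox effect by 2.74 ± 0.65, the 1 lower difference among the 72. The Dox means of iG+P and iPou4f3 were 439 and 780 and their untreated means 367 and 95.7, and with all untreated libraries as one control the Dox effect in iPou4f3 was 2.08. Adding Gfi1 to Atoh1 raised it by 2.01 and adding Atoh1 to Gfi1 by 2.11, and both were called. The untreated mean of iG+A (108) was below those of iAtoh1 (276) and iGfi1 (225), and its Dox mean (721) above theirs (494 and 385). The first was lost when the second untreated or first Dox replicate of iAtoh1, the first untreated replicate of iG+A or either Dox replicate of iG+A was left out (1.35 to 2.67 over the 8 libraries). It was also not called with quantile normalization (adjusted p = 0.0549, limma), without the trend (0.0604) or with only the 4 groups fitted (0.166). The second was lost when the first replicate of any of the 4 groups was left out (1.45 to 2.77). Adding Atoh1 on top of Pou4f3 gave -1.53 (interval -2.89 to -0.17) and adding Pou4f3 on top of Gfi1 with Atoh1 gave -1.46 (interval -2.82 to -0.10), and neither was called.

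Gad1 (chr2:70391129-70440071, plus strand, NCBIM37), which makes the GAD67 isoform and shares its span with the antisense gene Gad1os, was not called in any line, and its replicates differed widely in some. In iG+A it was 2.32 and 40.3 normalized counts untreated and 3.19 and 31.7 with Dox. In iAtoh1 it was 97.8 and 30.2 untreated and 107 and 28.4 with Dox. In these lines the same replicate number was high in both conditions, as it was in 5 of the 7 lines. In iP+A and iGPA the order of the replicates changed between conditions (23.4 and 50.6 against 20.9 and 12.5, and 15.8 and 6.88 against 18.7 and 28.6). The standard error of the fold change was 1.08, the widest of the 8 genes, and 95% intervals ran from -2.25 to 2.29 in iAtoh1 and from -1.2 to 3.34 in iGPA. With the replicate as a block, iGPA had a Dox effect 2.12 above that of iP+A (adjusted p = 0.0484, limma), a difference that was not called without the block (adjusted p = 0.369, limma).

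Slc6a5 (chr7:57165516-57219226, plus strand, NCBIM37), the plasma membrane glycine transporter of glycinergic neurons, was at 0 to 10.5 normalized counts in untreated libraries and at 0 to 5.42 with Dox. The highest value was that of an untreated iGPA library, and no line stood apart.

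The cholinergic pair was low in all libraries. Slc18a3 is a gene without introns that lies within Chat (chr14:33221389-33279095, minus strand, NCBIM37), so that reads assigned to 1 of the 2 may come from the other. Chat was 0 to 12.9 normalized counts in untreated libraries. It reached 10 in 3 libraries, both iGPA Dox libraries and 1 untreated iG+P library, and so passed the filter only through the group in which it was high. Its tests that involve iGPA are therefore a description. In iGPA it was 1.94 and 2.18 untreated and 19.9 and 25.3 with Dox (log2 fold change 2.94 ± 0.68, SE, on the scale that adds 1; adjusted p = 0.0017, limma, and 0.0012 with no filter). The next highest Dox values were 8.42 and 9.82 in iG+A, against 2.65 and 4.76 untreated, and that change of 1.14 was not called. For Chat, the difference of Dox effects was 4.49 ± 0.96 for iGPA minus iG+P and 2.83 ± 0.96 for iGPA minus iP+A, with the same limit. The latter was not called with the replicate as a block (adjusted p = 0.0909, limma), a pseudocount of 0.5 or quantile normalization and was lost when any one of the 8 libraries was left out (2.66 to 2.99). In iG+P, Chat was 12.9 and 2.29 untreated and 0.543 and 2.46 with Dox.

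Slc18a3 did not exceed 18.4 normalized counts in any library and was at 0 in 9 of the 28. It reached 10 in 3 libraries, 1 each of iAtoh1 and iGPA with Dox and of untreated iG+P, and would not have passed the filter without the first 2, so that its tests in the lines with Atoh1 are a description. With Dox it held 4.80 to 18.4 in the 8 libraries with Atoh1 and 0 to 2.06 in the 6 without. It was called in iG+A (0 and 1.12 against 5.31 and 8.54), iP+A (0 and 0.917 against 8.14 and 4.80) and iGPA (0.874 and 0.982 against 18.4 and 9.07), with log2 fold changes of 2.41, 2.39 and 2.86 that depend on the 1 added to each value, since the untreated values stand for about 1 read or none. In iAtoh1 the values were 2.93 and 1.63 against 10.9 and 8.53 and were not called (1.73, adjusted p = 0.154, limma). All 4 iPou4f3 libraries were at 0. The call in iP+A was lost when any one of its 4 libraries was left out (1.92 to 2.86), that in iG+A without the first untreated or either Dox replicate (1.87 to 2.96), and that in iGPA without the first Dox replicate (2.39 to 3.33). In iP+A and iG+A it was also absent with a pseudocount of 5 (1.06 and 1.09) and when only the 2 groups concerned were fitted, and in iP+A with a pseudocount of 0.5. The Dox effect was 4.17 ± 1.2 higher in iGPA than in iG+P, and this was lost when only the 4 groups concerned were fitted and when the first untreated or second Dox replicate of iG+P, either untreated replicate of iGPA or the first Dox replicate of iGPA was left out (2.36 to 5.98).

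Th (chr7:150078657-150117033, minus strand, NCBIM37) was called in 2 of the 7 lines. It was 0 to 10.1 normalized counts in the untreated libraries. In iG+A it went from 8.12 and 10.1 to 524 and 240 (log2 fold change 5.15 ± 0.67, SE, adjusted p = 7.97e-06, limma). In iGPA it went from 4.37 and 5.89 to 211 and 248 (5.24 ± 0.67, adjusted p = 4.33e-06, limma). The 10 other Dox libraries held 1.78 to 24.2 normalized counts, below the 4 of iG+A and iGPA. The share of all genes that split in this way was not counted, so the gap is a description. Both lines carry Gfi1 and Atoh1. In iAtoh1, Th was 0 and 6.53 untreated and 5.48 and 5.68 with Dox. It was not called, except without the second untreated replicate (2.72), which leaves the untreated library at 0 alone. In iP+A it was 5.09 and 6.43 against 10.9 and 5.77 and was not called.

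In iGfi1, Th went from 5.00 and 5.00 to 24.2 and 16.5, a log2 fold change of 1.81 ± 0.67 that missed the threshold (adjusted p = 0.0527, limma). It was called with the replicate as a block (adjusted p = 0.0473, limma), with rescaling by the 75th percentile, with only the 2 groups fitted and with all untreated libraries as one control. Adding Gfi1 raised the Dox effect on Th by 3.88 ± 0.94 on top of Atoh1 and by 4.83 ± 0.94 on top of Pou4f3 with Atoh1. On top of Pou4f3 alone the difference was 1.73 (interval -0.25 to 3.71) and was not called. Adding Atoh1 raised it by 3.34 ± 0.94 on top of Gfi1 and by 4.08 ± 0.94 on top of Gfi1 with Pou4f3. On top of Pou4f3 alone the difference was 0.98 (interval -0.99 to 2.96). The difference between iGPA and iG+A was 0.09 (interval -1.88 to 2.07). The value of 3.34 was not called without the first iG+A Dox replicate (2.78), and that of 3.88 when only the 4 groups were fitted.

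Slc18a2 (chr19:59335368-59370502, plus strand, NCBIM37) was expressed in every library, with 1210 to 5520 normalized counts in untreated EBs. It rose in 3 lines. In iG+P it went from 1397 and 1823 to 7425 and 9793 (log2 fold change 2.42 ± 0.26, SE, adjusted p = 1e-06, limma). In iP+A it went from 1311 and 1210 to 12708 and 10629 (3.21 ± 0.26, adjusted p = 4.75e-08, limma). In iGPA it went from 2120 and 2981 to 14099 and 12274 (2.39 ± 0.26, adjusted p = 6.65e-07, limma). These are the 3 lines in which Pou4f3 was combined with another factor.

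With Pou4f3 alone, Slc18a2 went from 4113 and 3104 to 5571 and 6893 and was not called (0.79, adjusted p = 0.091, limma). It was 1713 and 1931 against 2605 and 3166 in iAtoh1, 2623 and 2031 against 4508 and 4074 in iGfi1, and 5520 and 3333 against 5308 and 3076 in iG+A. All 8 Dox libraries with Pou4f3 (5571 to 14099) lay above the 6 without it (2605 to 5308), a gap found in that direction for 1.09% of the genes tested and, of the 8 transmitter genes, for Slc18a2. Adding Pou4f3 raised the Dox effect by 2.55 on top of Atoh1, by 1.52 on top of Gfi1 and by 2.47 on top of Gfi1 with Atoh1. On top of Pou4f3, adding Atoh1 raised it by 2.41 and adding Gfi1 by 1.62. The untreated mean of iPou4f3 (3608) was above those of iP+A (1260) and iG+P (1610), and its Dox mean (6232) below theirs (11668 and 8609). The other 4 differences were not called. Adding Gfi1 gave -0.75 (interval -1.51 to 0.02) on top of Atoh1 and -0.82 (interval -1.59 to -0.05) on top of Pou4f3 with Atoh1. Adding Atoh1 gave -0.98 (interval -1.75 to -0.21) on top of Gfi1 and -0.03 (interval -0.80 to 0.74) on top of Gfi1 with Pou4f3. The value of 1.52 was lost without the first untreated or second Dox replicate of iGfi1 or of iG+P (1.33 to 1.72), and that of 1.62 without the first replicate of iPou4f3 in either condition or the first untreated or second Dox replicate of iG+P (1.42 to 1.83). The untreated means of the lines ranged from 1260 ± 71.7 in iP+A to 4426 ± 1547 in iG+A (SD, n = 2), and with all untreated libraries as one control the log2 fold change in iP+A was 2.35.

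Other genes that make, load, take up or break down transmitters were counted from 2 further lists. Among all genes tested, 1.47% (iPou4f3) to 8.65% (iGPA) rose in a line and 0.606% (iPou4f3) to 5.36% (iG+P) fell. The counts of the lists were not tested against these shares. Of 12 further vesicular and synthesis genes, 10 were tested, and 1 rose in each of the 7 lines, while 3 fell in iG+A and 0 in the other lines. The median log2 fold change of this list was -0.24 to 0.12 over the lines. Slc17a8, the glutamate transporter of HCs, was called in the lines that combined Gfi1 with another factor. With Gfi1 alone it went from 3.83 and 2.82 to 19.2 and 7.26 normalized counts and was not called. In iG+P it went from 10.1 and 3.08 to 748 and 926 (log2 fold change 6.95 ± 0.85, SE, adjusted p = 4.49e-06, limma), in iGPA from 2.47 and 2.77 to 111 and 128 (5.06) and in iG+A from 8.21 and 1.58 to 25.5 and 77.4 (3.23). The call in iG+A was lost without the second untreated or the second Dox replicate and when only the 2 groups were fitted. Slc17a7 and Slc17a8 were both called in iGPA and iG+A. In iAtoh1 and iP+A Slc17a7 was called and Slc17a8 with Dox was 1.45 to 6.45 normalized counts, and in iG+P Slc17a8 was called and Slc17a7 was not.

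Hdc, which makes histamine, a transmitter that is loaded by Slc18a2, went from 80.4 and 46.9 to 3490 and 3096 in iP+A (5.72 ± 0.40, adjusted p = 8.63e-09, limma) and from 39.5 and 35.7 to 363 and 474 in iPou4f3 (3.43). In iG+P and iGPA, where Slc18a2 also rose, Hdc with Dox was 61.8 and 72.6, and 49.2 and 43.4, and was not called. Slc18a1, the second vesicular monoamine transporter, rose in iAtoh1 (46.2 and 18.9 against 215 and 111, 2.34), a call that was absent when only the 2 groups were fitted, and fell in iG+A (-1.60), a call that was also absent with all untreated libraries as one control, with a pseudocount of 5 and without the second untreated or first Dox replicate. Tph2, the neuronal enzyme of serotonin synthesis, rose in iGfi1 (2.02) and fell in iG+A (-2.21), and Tph1 fell in iG+A (-2.17). Ddc, the decarboxylase that follows Th in dopamine synthesis, held 180 to 426 normalized counts in all 28 libraries and was not called in any line. Dbh, which turns dopamine into noradrenaline, did not exceed 20.6 and was too low to test.

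Of 16 genes for uptake and breakdown, 0 to 2 rose and 0 to 3 fell in a line, with medians from -0.41 to 0.26. The GABA transporter Slc6a13 rose in the 4 lines with Gfi1 (2.54 to 3.85). The dopamine transporter Slc6a3 rose in the lines in which Th rose, from 3.48 and 3.36 to 36.2 and 64.7 normalized counts in iG+A (3.48 ± 0.54, adjusted p = 5.9e-05, limma) and from 3.5 and 0.983 to 23.6 and 33.3 in iGPA (3.28). The choline transporter Slc5a7 was not called in iGPA, where Chat and Slc18a3 rose, and fell in iG+A (-2.36). The glutamate transporter Slc1a3, which glia and other cells express, fell in iAtoh1, iG+A and iGPA (-2.17, -2.79 and -3.41). Slc1a2, another glutamate transporter of glia, rose in iAtoh1, from 73.3 and 39.0 to 393 and 175 normalized counts (2.27), and in iP+A (2.43). The other calls of this list were Slc1a6, lower in iG+P, iP+A and iGPA (-3.20, -1.75 and -2.77), Ache, lower in iAtoh1 (-2.12) and higher in iG+P (1.51), Slc6a2, higher in iAtoh1 (2.11), and Maob, lower in iG+A (-1.59). Of 5 glial markers, none fell in iAtoh1, iG+A and iGPA, the lines in which Slc1a3 fell. Sox10 rose in these 3 lines and Gfap in iGPA. The summed normalized counts of the 5 markers in iGPA were 1494 and 2358 untreated and 4408 and 3923 with Dox.

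Transcription factors known for each identity were counted in 4 lists. As above, 1.47% to 8.65% of all genes tested rose in a line and 0.606% to 5.36% fell. The counts of these 4 lists were not tested against those shares. Of 8 factors known for glutamatergic identity, 4 rose in iGPA, 3 in each of the 3 lines with 2 factors, 2 in iAtoh1 and 1 in both iGfi1 and iPou4f3, and 1 fell in iG+A and in iG+P. The medians of this list ran from 0.05 in iG+A to 2.16 in iGPA. Barhl1, a homeobox gene of the Atoh1 lineage, rose in 6 lines. In iP+A it went from 5.09 and 7.36 to 1173 and 885 normalized counts (7.16 ± 0.48, adjusted p = 4.48e-09, limma). Its log2 fold change in iGPA was 6.53, and the difference between these 2 lines was not called. Neurod1 rose in the 4 lines with Atoh1 (2.39 to 5.35), the lines in which Slc17a7 rose. Lmx1b rose in the 4 lines with Gfi1 (1.73 to 4.45). Tlx3 rose in iG+P (3.99) and iGPA (2.83).

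Of 14 factors known for GABAergic or glycinergic identity, 12 were tested, 0 to 4 rose and 0 to 3 fell in a line, and the medians ran from -0.83 in iG+P to 0.42 in iPou4f3. Lbx1 rose in 5 lines (2.38 to 6.42), Lhx1 in iG+A, iG+P and iGPA (1.77, 2.82 and 5.09), and Lhx5 in iPou4f3 and iP+A (4.70 and 3.68). Lhx5 thus rose in both lines that hold Pou4f3 without Gfi1, and Gad2 was called in the same 2 lines and in iG+A. The forebrain factors Dlx1, Dlx2 and Dlx6 fell in iG+P (-2.05, -2.54 and -2.59), where Slc32a1 was called as higher, and Dlx1 fell in iGPA (-1.62).

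Of 5 factors known for cholinergic identity, 3 rose in iGPA and in iG+A, 2 in iP+A, 1 in iAtoh1 and 0 in the other lines, and 1, Lhx8, fell in 5 lines. The medians ran from -0.25 in iP+A to 3.02 in iGPA. The motor neuron factors Lhx3 and Isl1, which are also expressed in HCs, rose in iGPA (7.76 and 4.49), in iG+A (4.74 and 3.15) and in iP+A (4.61 and 2.04), where Chat was not called. Mnx1 rose in iGPA (3.02), iG+A (1.87) and iAtoh1 (1.88). Lhx8, known for forebrain cholinergic neurons, fell in iGPA from 255 and 399 to 8.19 and 2.02 normalized counts (-5.93 ± 0.61, adjusted p = 3.79e-07, limma) and in 4 other lines. Of 7 factors known for monoaminergic identity, 0 to 3 rose and 0 to 2 fell in a line, with medians from -0.82 to 0.86. The counts in iG+A and iGPA and the medians include Nkx2-2, with the limit given below. Fev rose in iG+A (3.71) and iGPA (3.01), the lines in which Th rose. Nkx2-2 reached 10 normalized counts only in the iG+A Dox libraries (23.5 and 49.8), through which it passed the filter, so that its values in iG+A (4.87) and iGPA (2.70) are a description. Phox2a fell in the 4 lines with Gfi1 (-2.78 to -3.73). Nr4a2, a factor of midbrain dopamine neurons, rose in iGfi1, iG+P and iGPA (1.56 to 1.76) and was not called in iG+A. Lmx1a, another factor of midbrain dopamine neurons, rose in iGfi1 (1.85) and fell in iAtoh1, iG+A and iP+A (-2.65, -1.61 and -1.89). Pitx3, also of midbrain dopamine neurons, rose in iAtoh1, where Lmx1a fell, from 6.84 and 18.8 to 60.3 and 148 normalized counts (2.94). Hand2, a factor of sympathetic neurons, fell in iGfi1, iG+P and iGPA (-1.63, -2.89 and -1.94). The sharing of lines between members and factors is a description of the calls and was not tested.

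Some of the calls named from these lists, beside those of Slc17a8 and Slc18a1 above, rested on single libraries. In iG+A, the call of Lmx1a was lost without the first untreated replicate, those of Lmx1b and Lhx1 were lost without the first untreated or second Dox replicate, that of Slc5a7 without the second untreated or first Dox replicate, that of Maob without the second Dox replicate and that of Tph1 without any of 3 libraries. In iGfi1, that of Hand2 was lost without the first untreated replicate, that of Phox2a without either first replicate, that of Tph2 without the second untreated or first Dox replicate and that of Nr4a2 without the first untreated or second Dox replicate. In iG+P, the calls of Barhl1 and Nr4a2 were lost without the first untreated replicate, that of Ache without the first untreated or second Dox replicate, that of Lbx1 without the first Dox replicate and that of Dlx6 without any of 3 libraries. In iP+A, that of Lbx1 was lost without the first untreated or second Dox replicate and those of Lhx8 and Slc1a6 without any of 3 libraries. In iGPA, that of Dlx1 was lost without the second Dox replicate, that of Tlx3 without either second replicate and that of Nkx2-2 without any of 3 libraries. In iAtoh1, that of Neurod1 was lost without the second untreated replicate, those of Pitx3 and Slc6a2 without the first untreated or second Dox replicate and that of Mnx1 without the second untreated or first Dox replicate. That of Barhl1 in iPou4f3 was lost without any of 4.

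Other settings also removed calls. The call of Lhx1 in iG+A was absent with quantile normalization, without the trend, with only the 2 groups fitted and with one common control, and its value fell as low as 0.72. That of Dlx6 in iG+P was absent with a pseudocount of 0.5, no filter, 75th percentile scaling, no trend and one common control. A pseudocount of 5 removed those of Barhl1 in iPou4f3 and iG+P, Lbx1 in iG+P and iP+A, Lmx1b, Tph1, Tph2 and Maob in iG+A, Tph2 in iGfi1, Slc6a2 in iAtoh1, and Dlx1 and Nkx2-2 in iGPA. Fitting only the 2 groups removed those of Barhl1 in iPou4f3, Lmx1b, Tph1 and Slc5a7 in iG+A, Tph2 and Nr4a2 in iGfi1, Slc1a2, Slc6a2, Pitx3 and Mnx1 in iAtoh1, and Slc1a6 in iP+A. One common control removed those of Barhl1 in iPou4f3, Lmx1a in iG+A, Hand2 in iGfi1, Nr4a2 in iGfi1 and iG+P, Maob in iG+A, Ache in iG+P, Slc1a6 in iP+A and Nkx2-2 in iGPA. Quantile normalization also removed that of Ache in iG+P.

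**Figure D4:**
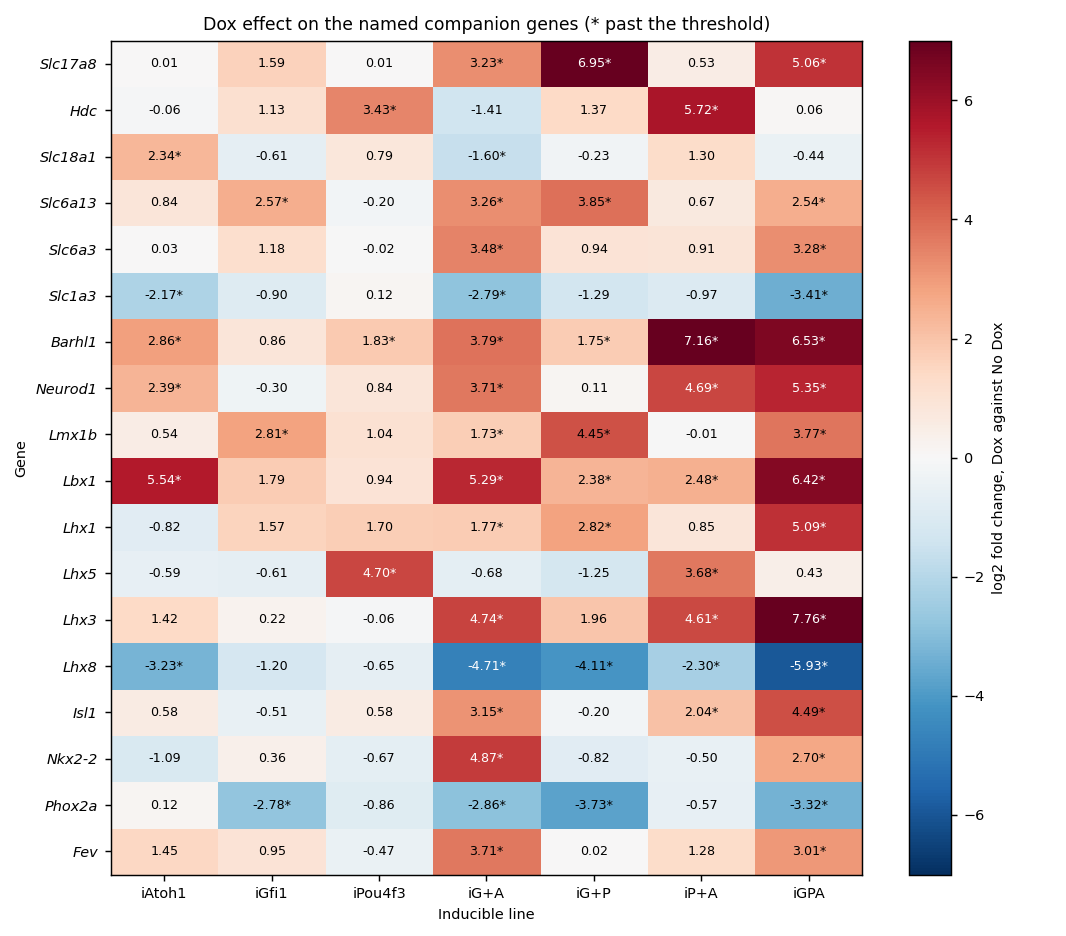
Log2 fold change of Dox against untreated EBs (colour and printed value) for 18 named genes of the further lists (rows) in the 7 lines (columns); an asterisk marks a call. Slc17a8 is highest in iG+P (6.95) and Hdc in iP+A (5.72), while Lhx8 falls in 5 lines.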

How the data were processed

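The authors trimmed reads with cutadapt, quantified them with Kallisto against UCSC knownGene transcripts of mm9 (NCBIM37), brought them to gene level with tximport and used DESeq2 for normalization (versions are not given in the sources used here). The deposited values are log2(normalized count + 1), highest 18.52, from libraries of poly(A) RNA made with a KAPA mRNA HyperPrep kit. They were returned to normalized counts, and whole reads could not be recovered, so no count model was run. In each library 17628 to 18074 genes were above 0, the counts summed to 36.8 to 40.4 M, and 1 read was worth 0.816 to 1.22. With 2 libraries per group, precision rests on the spread between replicates pooled over groups.

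The filter kept 16837 of 19421 genes, those with 10 or more normalized counts in 2 or more libraries. All 14 groups were fitted together on log2(normalized count + 1) with limma 3.58.1 in R 4.3.3 (trend, 14 residual degrees of freedom, Benjamini-Hochberg adjustment within each comparison), which was tested on simulated data. Fold changes of low genes are understated on this scale. The alternatives were pseudocounts of 0.5 and 5, no filter or one of 50, quantile and 75th percentile scaling, a replicate block, no trend, only the groups compared, one common control, a fold change of 1, and each library left out in turn.

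The main fit did not pair Dox and untreated libraries. Replicate numbers were taken as pairs only in the setting with a replicate block. They stand for clones, and deviations of equal numbers correlated by 0.103 to 0.246 across genes in the 7 lines. That equal numbers mean the same clone is not stated. The p-values measure the spread between these libraries.

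All 10 genes were named by rule. From each further list, the 3 genes with the largest called fold change in any line and always Slc17a8 were named, and other genes of the lists are given where a sentence needed them, chosen after their values were seen. Of the listed genes, 2 are not reported here and were left out of their lists. The genes and lists were chosen with earlier results of these data known. Symbols came from Entrez IDs (19314 named, 107 not), positions from GENCODE M1, which placed 9 of the 10, and promoters from RefSeq (GRCm38.p6).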

Additional observations from a re-analysis of the deposited data

Results flagged for a closer look

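The Dox effect differed between 2 lines that differ by 1 factor in 21 of 72 comparisons, by a test of the difference itself (limma, adjusted over all genes). For Slc17a7 the differences were 2.07 (iG+A minus iGfi1), 3.44 (iP+A minus iPou4f3), 2.60 (iGPA minus iG+A) and 4.14 (iGPA minus iG+P) on the log2 scale. For Slc32a1 they were 2.54 (iG+A minus iAtoh1) and 2.06 (iP+A minus iAtoh1). For Gad2 they were 2.01 (iG+A minus iAtoh1), 2.11 (iG+A minus iGfi1) and -2.74 (iG+P minus iPou4f3). For the cholinergic genes they were 4.49 (Chat, iGPA minus iG+P), 2.83 (Chat, iGPA minus iP+A) and 4.17 (Slc18a3, iGPA minus iG+P). Chat passed the filter on low values only through the iGPA Dox libraries, and Slc18a3 through 1 iGPA Dox, 1 iAtoh1 Dox and 1 untreated iG+P library, so that these 3 differences are a description.

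For Th the differences were 3.88 (iG+A minus iAtoh1), 3.34 (iG+A minus iGfi1), 4.08 (iGPA minus iG+P) and 4.83 (iGPA minus iP+A). For Slc18a2 they were 2.55 (iP+A minus iAtoh1), 1.52 (iG+P minus iGfi1), 1.62 (iG+P minus iPou4f3), 2.41 (iP+A minus iPou4f3) and 2.47 (iGPA minus iG+A). Groups of 2 libraries are too small for a test of single libraries that stand apart.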

How the results depend on the processing

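The number of the 8 genes called changed by more than 1.5 times under some alternatives. In iAtoh1 it was 2 with quantile normalization, with one common control and with a fold change of 1, against 1. In iGfi1 it was 2 with 75th percentile scaling, the replicate block, only the groups compared and one common control, against 1. It was 1 in iG+P with quantile normalization (2 before), 2 in iP+A with a pseudocount of 5 (4 before) and 3 in iGPA with a filter of 50 (5 before). For differences of Dox effects it was 1 in iG+A minus iAtoh1 (3 before) and 1 in iGPA minus iG+A (2 before) with only the groups compared, 2 in iGPA minus iG+P with the filter of 50 (4 before), and 1 in iGPA minus iP+A with a pseudocount of 0.5, the filter of 50 or quantile normalization (2 before). The filter of 50 tested fewer genes; the other causes were not tested.

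With single libraries left out, the counts were 1 to 2 in iAtoh1, 1 in iGfi1, 2 in iPou4f3, 3 to 4 in iG+A, 2 to 3 in iG+P, 2 in iP+A and 4 to 6 in iGPA. For the 9 pairs in the order of the report they were 2 to 3, 2, 1 to 4, 0 to 1, 1 to 4, 2, 2, 3 to 5 and 1. The count was 2 in iAtoh1 without either untreated or the first Dox replicate, and 2 in iP+A and 1 in iGPA minus iP+A without any 1 library. It was 1 in iG+A minus iGfi1 without the first iG+A Dox replicate, 0 in iG+P minus iGfi1 (1 before) without the first untreated or second Dox replicate of iG+P or of iGfi1, and in iG+P minus iPou4f3 (2 before) 4 without the second untreated iG+P replicate and 1 without the first of iG+P or of iPou4f3 untreated, the first iPou4f3 Dox or the second iG+P Dox replicate. With one common control, Slc18a3 in iAtoh1 (2.45) and Chat in iG+A (1.66) were also called. A pseudocount of 0.5 made Chat a lower call in iG+P minus iPou4f3 (-3.5, against -2.66 before), at values of few reads. The replicate block changed 3 calls of the 8 genes, all given above (Th in iGfi1, Gad1 and Chat in iGPA minus iP+A), and no other. Directions turned in 7 cases, for values that were not called: with one common control for Chat in iPou4f3 (-0.57) and Gad1 in iGPA (-0.21), and with single libraries left out for Th in iAtoh1 (-0.19 to 2.72), Slc18a3 in iG+P and in iG+P minus iPou4f3 (both -3.12 to 0.49) and Gad1 in iGPA minus iG+A (-0.75 to 2.89, of which -0.75 and -0.41 were turned). Scaling moved the median of all genes by at most 0.08. Normalized counts of 0 to 25.3 in Slc17a6, Slc6a5, Chat and Slc18a3 limit what can be seen at this depth.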

Other observations

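For each gene called in at least 1 line, the genes whose 14 group means of log2(normalized count + 1) were most like it by Pearson correlation were looked up among 5080 genes whose means spanned at least 2 log2 units. The points share lines, libraries and depth, and the values are descriptions. Slc17a7 was closest to Sh2b2 (0.979), Septin3 (0.977) and Nkain4 (0.974). Th was closest to Ofcc1 (0.965), Lrrc10b (0.963) and Gper1 (0.958). Slc18a3 was closest to Fxyd3 (0.948), Pdlim4 (0.945) and Lrrn2 (0.929), and Slc18a2 to Tmem120b (0.941), D430019H16Rik (0.938) and Fam241a (0.936).

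Likeness was lower for the GABAergic genes and Chat. Slc32a1 was closest to Slc44a5 (0.871), Dmbx1 (0.871) and Cntnap2 (0.868), Gad2 to Rnf152 (0.850), Dusp15 (0.844) and Lrrn1 (0.837), and Chat to Coro2a (0.823), Lgr6 (0.819) and Cacng6 (0.818). No other gene among the 10 transmitter genes was among the 3 closest to any of them.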
